A study of Mus musculus with 12 samples.

Results

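The vacuolar-type proton pump (V-ATPase) was followed through 10 of its genes, chosen by name: Atp6v1a, Atp6v1b2, Atp6v1c1, Atp6v1e1 and Atp6v1h of the cytosolic V1 sector, Atp6v0a1, Atp6v0b, Atp6v0c and Atp6v0d1 of the membrane V0 sector, and the accessory subunit Atp6ap1. All 10 were found by symbol among the 35275 genes listed, and all 10 passed the filter on low counts that left 12849 genes for testing. RNA was sequenced from mouse bone marrow-derived macrophages (BMDMs), which the labels give as wildtype. The bone marrow cells had been cultured for 6 days with IL-4, IL-10 and M-CSF, the last of which drives macrophage growth, and these cytokines were given to all 3 groups. The groups were the vehicle DMSO, olaparib, an inhibitor of the poly(ADP-ribose) polymerases, and MNA, which the study calls methyl-nicotinamide, a derivative of nicotinamide, with 4 libraries each. The labels give neither the age nor the strain of the mice nor the doses, and each group is a bulk culture. The question was how olaparib or MNA, present throughout the induction, changed gene expression against the vehicle.

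The pump acidifies lysosomes, endosomes and phagosomes, and in bone-resorbing cells the space outside the cell. Subunits A and B of V1 bind and hydrolyse ATP, the central stalk turns the ring of c subunits in V0, and protons pass between that ring and subunit a. The peripheral stalks, with subunits C, E, G and H, hold the motor still, and cells switch the pump off by letting V1 come away from V0, upon which C comes free and H silences V1. In macrophages the pump is known for its part in digestion of engulfed material and in nutrient sensing at the lysosome surface. Many of its genes carry a short element read by the MiT/TFE transcription factors.

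Total counts per library were 21146291 to 31446849 in DMSO, 24947905 to 28766984 in olaparib and 24076240 to 27501216 in MNA. In the principal components of all tested genes, MNA replicate 2 lay among the DMSO libraries and apart from the other 3 MNA libraries. Its label was kept, but whether this library is what its label says could not be told from the files, which bears on every MNA value that includes it. Its values are therefore given apart, and each MNA difference called with all libraries is also given without it. The macrophage label was checked on 8 markers, all of them detected, with a summed level of 4472 to 5730 counts scaled to library size (CPM) in DMSO, 8919 to 10699 in olaparib and 4106 to 7579 in MNA. Of these 8, 6 had a positive log2 fold change under olaparib and 5 under MNA without replicate 2. Lyz2 averaged 1918 CPM in DMSO and 6009 in olaparib, and Cd68 1228 and 839 CPM. Csf1r averaged 518 CPM in DMSO and 1735 in MNA without replicate 2, and Mrc1 679 and 149 CPM. Fcgr1 was at 2.3 CPM or less. Of 8 osteoclast markers the sum was 1045 to 1261 CPM in DMSO, 1551 to 1796 in olaparib and 987 to 1936 in MNA, with Calcr at 0.165 CPM or less and Oscar at 0.21 CPM or less in every library. Of the 6 tested, 5 had a positive log2 fold change under olaparib and 4 under MNA without replicate 2. Ctsk averaged 330 CPM in DMSO, 179 in olaparib and 12.6 in MNA without replicate 2. In the same groups Dcstamp averaged 194, 519 and 663 CPM, and Ocstamp 179, 398 and 666 CPM. The 8 neutrophil markers summed to 65.4 CPM at most and the 4 erythroid markers to 54.2 CPM at most, both in MNA replicate 4. Of 5 eosinophil markers Siglecf alone passed the filter, and their sum was 3.85 to 6.95 CPM in DMSO, 30.5 to 58.2 CPM in olaparib and 4.76 to 9.99 CPM in MNA. Dendritic cell markers summed to 17.4 to 26.5 CPM, and those of B cells, T cells, stromal cells, and mast cells with basophils to at most 6.45, 1.81, 1.21 and 0.442 CPM. In bulk RNA, fewer cells of a type and less RNA per cell cannot be told apart, and the part of these markers in the results below was not tested.

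Promoter sequence is shown for the members whose start region holds the letters CACGTG, the core of the MiT/TFE element, because the results turn on which pump genes moved together. RefSeq windows of 300 bases (250 before and 50 after a start, build GRCm38.p6) matched 7 of the 10 members, with 9 windows. Atp6v1b2, Atp6v1c1 and Atp6v1h are named only. The 3 stretches below run from 40 bases before the first CACGTG to 10 bases after the last, 5′ to 3′ on the gene's strand, and capitals mark CACGTG.
Atp6v0b, chr4:117887332-117887405, minus strand: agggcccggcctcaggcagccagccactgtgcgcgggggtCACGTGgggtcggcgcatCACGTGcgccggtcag
Atp6v0d1, chr8:105566052-105566107, minus strand: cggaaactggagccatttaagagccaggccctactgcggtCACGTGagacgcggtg
Atp6v1a, chr16:44139375-44139430, minus strand: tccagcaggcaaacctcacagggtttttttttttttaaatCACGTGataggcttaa

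In Atp6v0b the letters begin 36 and 18 bases before the RefSeq start, in Atp6v0d1 they begin 3 bases before it and run over it, and in Atp6v1a they begin 131 bases before it. By GENCODE, 2 bases of the Atp6v0b stretch are exonic, the Atp6v0d1 stretch lies outside any gene just before the annotated gene, and the Atp6v1a stretch is intronic, inside longer Atp6v1a transcripts. The longer palindrome TCACGTGA, which contains CACGTG, stood in the Atp6v0d1 and Atp6v1a windows. Both motifs read the same on both strands. Among all 32817 RefSeq windows of the same length, 7.15% held CACGTG and 0.975% held TCACGTGA. The Atp6v0a1 window held neither motif, but it lies inside the annotated gene, downstream of its first annotated base. Whether the letters bear on the values below was not tested.

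Per length, the 10 genes spanned 125 to 1013 TPM in DMSO, where TPM is computed from counts divided by the merged exon length and scaled to 1 total in every library. Atp6v0a1, the a subunit isoform that places the pump on endosomes and lysosomes, stood highest at 1013 ± 23.0 TPM (SD, n = 4), above every library of the next gene. Atp6v1b2, the B subunit found in most tissues, followed with 907 ± 48.2 TPM and Atp6v1a, the catalytic A subunit, with 832 ± 63.6 TPM, and the libraries of these 2 overlapped. Atp6ap1, which helps assemble the pump in the secretory pathway, had 540 ± 12.3 TPM and Atp6v0d1, the d subunit that couples stalk and ring, had 417 ± 23.5 TPM.

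The lower part of the order was Atp6v0c at 262 ± 17.6 TPM, Atp6v1c1 at 262 ± 23.9 TPM and Atp6v0b at 242 ± 32.0 TPM, with overlapping libraries between neighbours. Atp6v0c and Atp6v0b encode the proteolipids of the ring and Atp6v1c1 the C subunit. Atp6v1e1, a peripheral stalk subunit, had 197 ± 12.8 TPM and Atp6v1h, the regulatory H subunit, 125 ± 12 TPM. With the length of the longest transcript instead, Atp6v1b2 came first with 1330 ± 67.9 TPM, overlapping Atp6v0a1, and Atp6v0b moved up to the fifth place, since its merged exons are 2051 bases and its longest transcript 1000 bases. In olaparib and in MNA without replicate 2, Atp6v1b2 stood above Atp6v0a1 in every library by either length, and Atp6v1c1 came below Atp6v1e1.

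**Figure D1:**
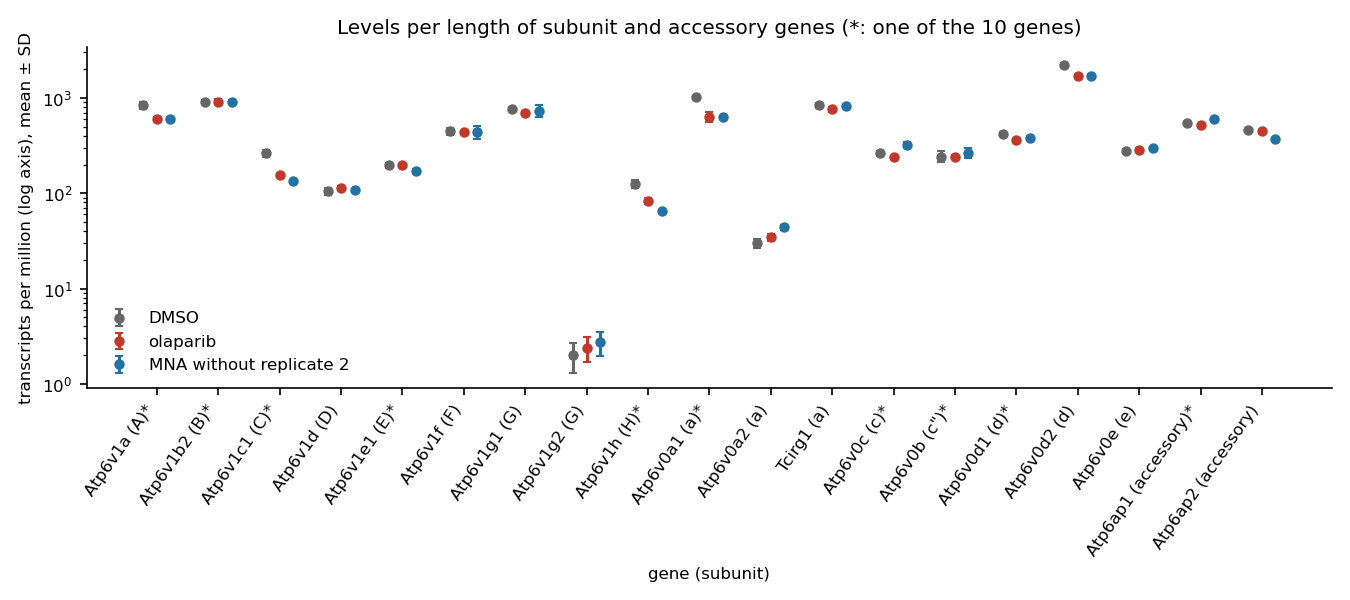
Levels per length of the subunit and accessory genes above 1 TPM in DMSO, as mean ± SD in TPM on a log axis, with 4 DMSO, 4 olaparib and 3 MNA libraries (replicate 2 left out) and asterisks on the 10 genes. Atp6v0d2 stands highest in all 3 groups, and Atp6v0a1, Atp6v1a, Atp6v1c1 and Atp6v1h show DMSO above both treatments.

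Isoforms of other tissues were near 0. Atp6v1b1, the B isoform of kidney, reached 0.0938 CPM at most, Atp6v1c2 reached 0.0804 CPM, Atp6v0a4 reached 0.0469 CPM, and Atp6v1e2 and Atp6v1g3 had no count in any library. So subunits B, C and E were represented almost wholly by the members. For 2 subunits another isoform was abundant: Tcirg1, the a3 isoform of osteoclasts and macrophages, had 833 ± 45.6 TPM in DMSO, and Atp6v0d2, the d isoform of osteoclasts and fused macrophages, had 2236 ± 114 TPM, against the 417 TPM of Atp6v0d1.

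Of all counts, 0.725% ± 0.0162 (SD, n = 4) fell on the 10 genes in DMSO, 0.588% ± 0.0227 in olaparib and 0.609% ± 0.0718 in MNA. Without MNA replicate 2, the MNA share was 0.573% ± 0.00355 (SD, n = 3). The ranges of DMSO, 0.707% to 0.742%, and olaparib, 0.556% to 0.610%, did not overlap. The genes with the highest counts carry most of this sum.

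**Figure D2:**
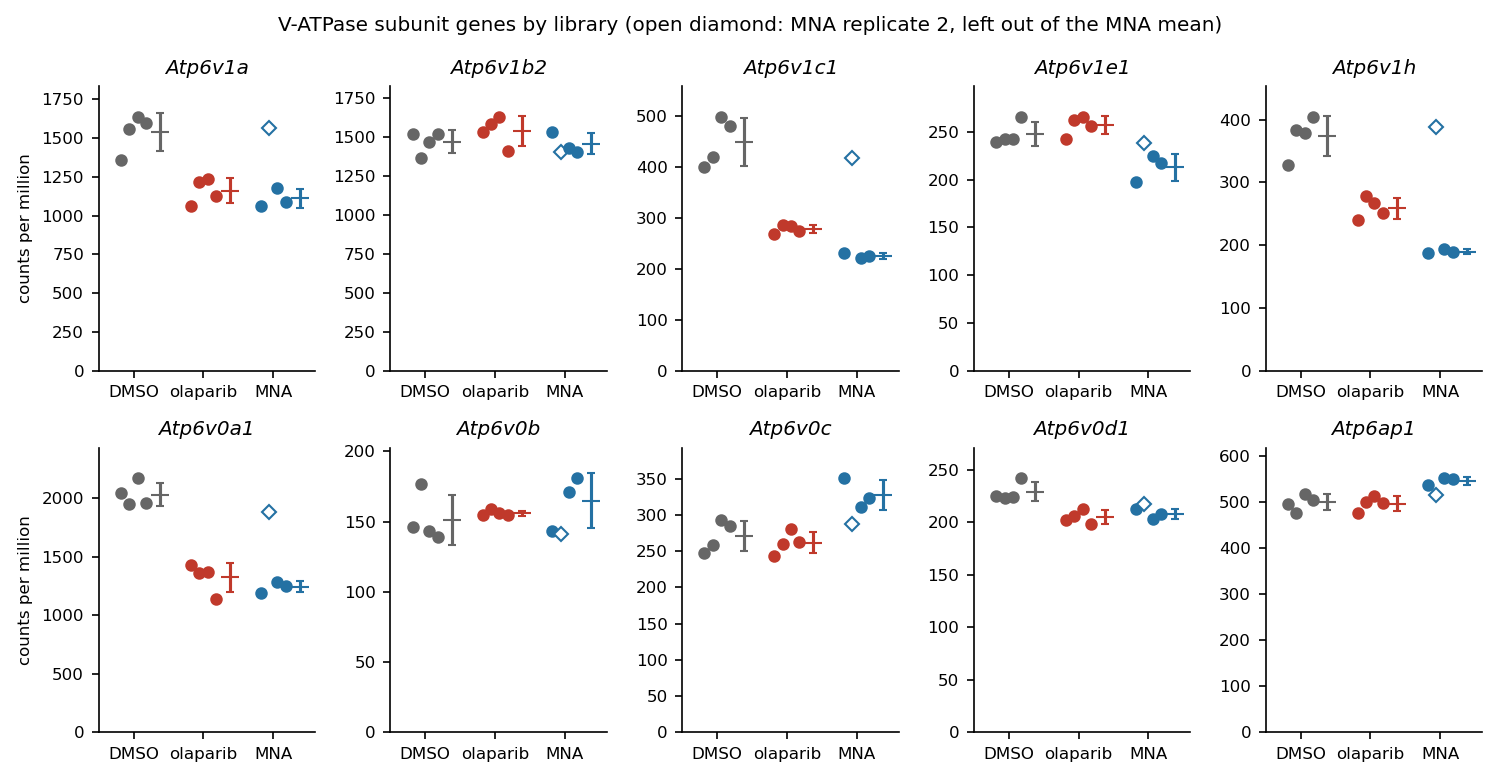
CPM of the 10 genes in each of the 12 libraries, with the mean ± SD beside each group (n = 4 for DMSO and olaparib, n = 3 for MNA, without replicate 2, which is the open diamond). Atp6v1a, Atp6v1c1, Atp6v1h and Atp6v0a1 have all olaparib libraries and 3 MNA libraries below every DMSO library, and the diamond within or near the DMSO range.

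Under olaparib 4 of the 10 genes were lower than in DMSO and 0 were higher: Atp6v1a and Atp6v1c1 of V1 and Atp6v0a1 and Atp6v0d1 of V0 (edgeR quasi-likelihood test, Benjamini-Hochberg adjusted p under 0.05 over all tested genes). Of all tested genes 12.8% were called lower and 14.3% higher. No member was higher at an unadjusted p under 0.05 either. In both directions together, 5 members and 5280 of all 12849 tested genes passed that threshold. DESeq2 also called 0 members higher, but its share over all genes is not given. The median log2 fold change of the 10 genes was -0.11, against 0.00 over all tested genes. In 5 of the 10 every olaparib library was below every DMSO library, which held for 20.3% of all tested genes. The counts were 5 lower and 0 higher without MNA replicate 2, where 21.2% of all tested genes were called lower and 22.5% higher. All these calls come from fits by group, without pairing. Whether olaparib and DMSO numbers pair could not be told. In the edgeR fit with the replicate block over all 12 libraries, Atp6v1h was called lower (adjusted p = 0.0409) and Atp6v0d1 was not (0.0649). With the block and without MNA replicate 2 both were called lower (6.6e-06 for Atp6v1h and 0.0205 for Atp6v0d1). The calls of Atp6v1a, Atp6v1c1 and Atp6v0a1 were kept. The largest called differences were in subunits C and a.

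Atp6v1c1 (ENSMUSG00000022295, chromosome 15, 38661933 to 38692446, plus strand) encodes the C subunit, which joins V1 to V0. Its levels in the 4 DMSO libraries were 400, 418, 498 and 479 CPM, in olaparib 269, 286, 284 and 273 CPM, and in MNA 231, 417, 221 and 224 CPM, in replicate order. The olaparib libraries lay together, well under the lowest DMSO library. Atp6v1c1 fell by 38.1% under olaparib, with a log2 fold change of -0.69 (SE 0.18, edgeR adjusted p = 0.0154). The call was kept when any 1 of the 12 libraries was left out, with a highest adjusted p of 0.0459.

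Atp6v0a1 (ENSMUSG00000019302, chromosome 11, 101009452 to 101063719, plus strand) encodes the a1 isoform of the subunit that forms the proton path. It had 2042, 1951, 2173 and 1963 CPM in DMSO, 1427, 1361, 1369 and 1142 CPM in olaparib, and 1194, 1879, 1288 and 1247 CPM in MNA. The highest olaparib library was far below the lowest DMSO library. Atp6v0a1 fell by 34.8% under olaparib (log2 fold change -0.62, SE 0.14, edgeR adjusted p = 0.00694). This call too was kept with any 1 library left out, with a highest adjusted p of 0.0252.

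Atp6v1a (ENSMUSG00000052459, chromosome 16, 44085402 to 44139705, minus strand) encodes the catalytic A subunit. It had 1359, 1555, 1638 and 1598 CPM in DMSO, 1060, 1219, 1233 and 1127 CPM in olaparib, and 1065, 1566, 1181 and 1090 CPM in MNA. No olaparib library reached the lowest DMSO library, DMSO replicate 1. Atp6v1a fell by 24.6% under olaparib (log2 fold change -0.41, SE 0.12, edgeR adjusted p = 0.0268). The call was lost without DMSO replicate 2 (adjusted p = 0.0597), DMSO replicate 3 (0.0699), DMSO replicate 4 (0.0660), olaparib replicate 1 (0.0689) or olaparib replicate 4 (0.0642), and without MNA replicate 2 the adjusted p was 0.000418.

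Atp6v1h (ENSMUSG00000033793, chromosome 1, 5070018 to 5162529, plus strand) encodes the H subunit, which in detached V1 blocks ATP hydrolysis. It had 328, 383, 378 and 405 CPM in DMSO, 240, 278, 267 and 251 CPM in olaparib, and 187, 389, 194 and 189 CPM in MNA. Every olaparib library stood below the lowest DMSO library. Its log2 fold change under olaparib was -0.53 (SE 0.20, edgeR adjusted p = 0.0709) with all 12 libraries, which missed the threshold. It was called lower in the fit with the replicate block (adjusted p = 0.0409), by DESeq2 (0.0346) and in a fit of olaparib and DMSO alone (9.28e-05). It was also called in the fit without MNA replicate 2 (3.89e-05), a library that is in neither of the groups compared. In that last fit the common dispersion, the overall spread between replicates, was 0.0123, against 0.0333 with all 12 libraries.

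Atp6v0d1 (ENSMUSG00000013160, chromosome 8, 105524465 to 105566047, minus strand) had 225, 223, 224 and 242 CPM in DMSO, 202, 206, 213 and 198 CPM in olaparib, and 213, 217, 203 and 208 CPM in MNA. The groups did not overlap, but the gap between them was small. Atp6v0d1 fell by 10.5% under olaparib (log2 fold change -0.16, SE 0.05, edgeR adjusted p = 0.0383). The call was lost in the fit with the replicate block and all libraries (adjusted p = 0.0649), but not with the block and without MNA replicate 2 (0.0205). It was also lost whenever any 1 of the 8 DMSO and olaparib libraries was left out. There the adjusted p ran from 0.0517 without olaparib replicate 3 to 0.110 without DMSO replicate 4. The call was lost as well with upper quartile normalization (0.0586), with no filter on low counts (0.111) and with a mean of at least 50 counts (0.0557). It was kept by DESeq2 (0.0033), in a fit of the 2 groups alone (0.0137) and in the fit without MNA replicate 2 (0.0172).

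The other 5 genes were not called between olaparib and DMSO. Atp6v1b2 (ENSMUSG00000006273, chromosome 8, 69088646 to 69113711, plus strand) ran from 1368 to 1524 CPM in DMSO and 1412 to 1633 CPM in olaparib, a log2 fold change of 0.07 with a 95% interval of -0.07 to 0.21. Atp6v1e1 (ENSMUSG00000019210, chromosome 6, 120794305 to 120822793, minus strand) ran from 239 to 266 CPM in DMSO and 243 to 265 CPM in olaparib, an interval of -0.08 to 0.18 around 0.05. Both are V1 subunits, and their intervals exclude a fall as large as those of Atp6v1c1 or Atp6v1a.

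The ring genes and the accessory subunit likewise overlapped between olaparib and DMSO. Atp6v0b (ENSMUSG00000033379, chromosome 4, 117884326 to 117887333, minus strand) ran from 139 to 177 CPM in DMSO and 155 to 159 CPM in olaparib, with an interval of -0.14 to 0.23 around 0.05. Atp6v0c (ENSMUSG00000024121, chromosome 17, 24163866 to 24169702, minus strand) ran from 248 to 293 CPM in DMSO and 244 to 281 CPM in olaparib, with an interval of -0.20 to 0.10 around -0.05. Atp6ap1 (ENSMUSG00000019087, chromosome X, 74297097 to 74304721, plus strand) ran from 478 to 519 CPM in DMSO and 476 to 515 CPM in olaparib, with an interval of -0.12 to 0.10 around -0.01. Atp6v0c shares 11.9% of its 31-base words with other genes, mostly the copy Atp6v0c-ps2, and 11.8% of the exon length of Atp6v0b overlaps the antisense gene Gm12841, so counts of these 2 could include reads of their neighbours.

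**Figure D3:**
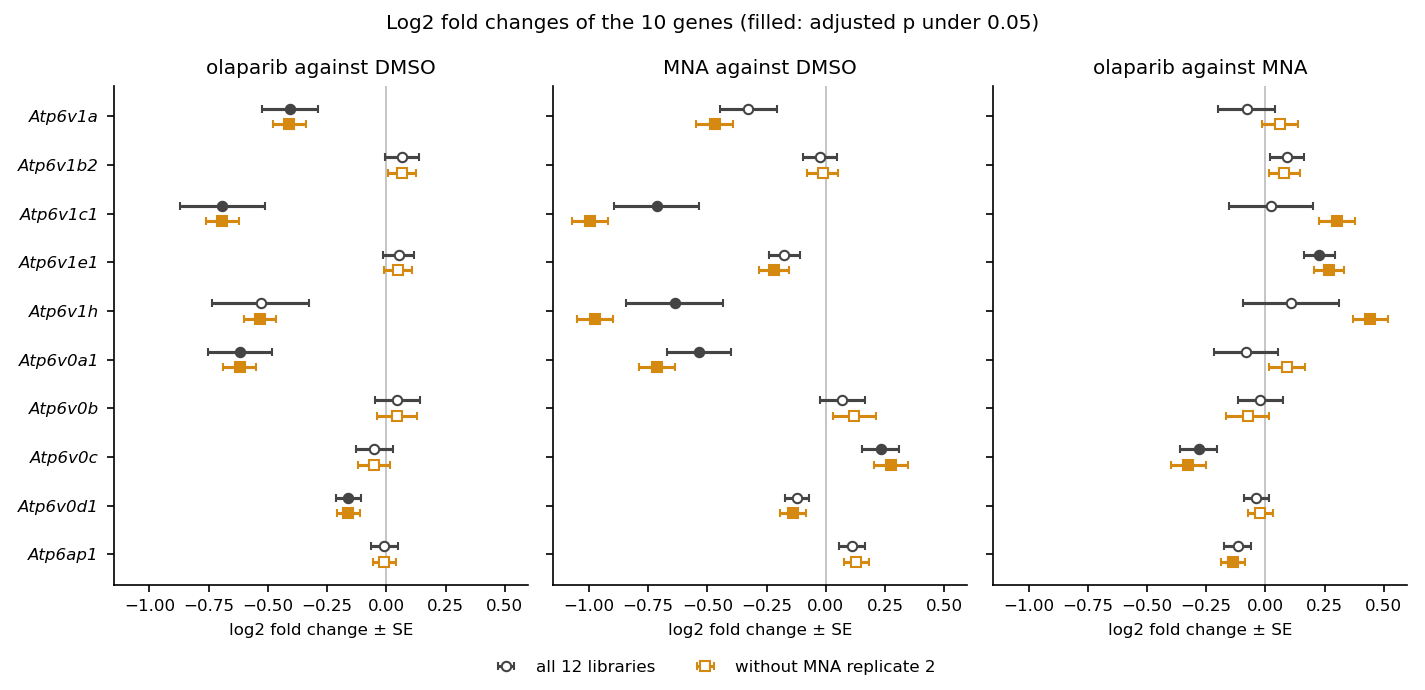
Log2 fold changes ± SE of the 10 genes in the 3 comparisons, with all 12 libraries (circles) and without MNA replicate 2 (squares), filled where the edgeR adjusted p was under 0.05. Without that library the points of Atp6v1c1 and Atp6v1h in MNA against DMSO move to -0.996 and -0.98, and the SE shrink in all 3 comparisons for these genes.

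With all 12 libraries, MNA changed 4 of the 10 genes against DMSO, 3 lower (Atp6v1c1, Atp6v1h and Atp6v0a1) and 1 higher (Atp6v0c). Of all tested genes 12.3% were called lower and 16.3% higher. The median log2 fold change of the members was -0.15, against 0.00 over all tested genes. In 3 members (Atp6v0a1, Atp6v0d1 and Atp6v1e1) every MNA library was below every DMSO library, which held for 6.12% of all tested genes. Without MNA replicate 2, the counts were 6 lower and 1 higher, where 26.9% of all tested genes were called lower and 27.2% higher, and the groups of 6 members did not overlap in the lower direction, against 26.9% of all tested genes. The genes added were Atp6v1a, Atp6v1e1 and Atp6v0d1, and the median became -0.18.

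MNA replicate 2 was the outlying library in the 3 genes that were called lower. Its Atp6v1c1 level of 417 CPM lay inside the DMSO range of 400 to 498 CPM, and the other 3 MNA libraries lay within 221 to 231 CPM. Atp6v1c1 fell by 39.1% with all libraries (log2 fold change -0.71, SE 0.18, edgeR adjusted p = 0.0198) and fell by 49.9% without MNA replicate 2 (-0.996, SE 0.08, adjusted p = 1.39e-07). Atp6v1h stood at 389 CPM in that library and at 187 to 194 CPM in the other 3. It fell by 35.8% with all libraries (-0.64, SE 0.20, adjusted p = 0.0377) and fell by 49.1% without it (-0.98, SE 0.08, adjusted p = 1.67e-07).

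Atp6v0a1 behaved alike, with 1879 CPM in MNA replicate 2 against a DMSO minimum of 1951 CPM. It fell by 31% with all libraries (log2 fold change -0.54, SE 0.14, edgeR adjusted p = 0.0200) and fell by 38.9% without that library (-0.71, SE 0.08, adjusted p = 3.37e-06). When DMSO replicate 3, MNA replicate 1, MNA replicate 3 or MNA replicate 4 was left out, the calls of Atp6v0a1 and Atp6v1c1 were lost, with adjusted p up to 0.0661 for Atp6v0a1 and 0.0658 for Atp6v1c1. The call of Atp6v1h was lost with any of 10 single libraries left out, all except DMSO replicate 1 and MNA replicate 2, with adjusted p up to 0.111.

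Atp6v1a stood at 1566 CPM in MNA replicate 2, above the DMSO mean of 1538 ± 124 CPM (SD, n = 4), and at 1065 to 1181 CPM in the other 3. Its log2 fold change was -0.33 (SE 0.12, edgeR adjusted p = 0.0571) with all libraries, and it fell by 27.8% without that library (-0.47, SE 0.08, adjusted p = 0.000158). In the fit with the replicate block and all libraries the adjusted p was 0.0275. Whether MNA and DMSO numbers pair could not be told. Their deviations correlated at r = 0.242, 0.114, -0.009 and 0.277 for replicates 1 to 4, and the MNA group means used there include replicate 2. This block may therefore compare libraries that share a number only.

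Atp6v0c was the member that rose under MNA. Its levels were 248, 259, 293 and 285 CPM in DMSO and 351, 288, 311 and 323 CPM in MNA, so only MNA replicate 2 lay inside the DMSO range. Atp6v0c encodes the c subunit, which forms most of the proton-carrying ring. It rose by 17.3% with all libraries (log2 fold change 0.23, SE 0.08, edgeR adjusted p = 0.0445) and by 20.9% without MNA replicate 2 (0.27, SE 0.07, adjusted p = 0.00584). The first call was lost with each of the other 11 libraries left out, with adjusted p up to 0.125.

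Smaller differences were seen in Atp6v1e1 and Atp6v0d1. Atp6v1e1 had 239, 242, 243 and 266 CPM in DMSO, 243, 262, 265 and 256 CPM in olaparib, and 198, 238, 225 and 217 CPM in MNA. Against DMSO its log2 fold change under MNA was -0.18 (SE 0.07, edgeR adjusted p = 0.0614), and it fell by 14.0% without MNA replicate 2 (adjusted p = 0.00926). For Atp6v0d1 the log2 fold change was -0.12 (SE 0.05, adjusted p = 0.0880), and it fell by 9.19% without that library (adjusted p = 0.0411). Without that library this call was lost with the replicate block (0.0507) and in a fit of the 2 groups alone (0.0725).

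Atp6v1b2, Atp6v0b and Atp6ap1 were not called in MNA against DMSO in either fit. Atp6v1b2 ran from 1407 to 1535 CPM in MNA, a log2 fold change of -0.03 with a 95% interval of -0.17 to 0.12. Atp6v0b ran from 141 to 181 CPM, with an interval of -0.12 to 0.26 around 0.07. Atp6ap1 ran from 517 to 553 CPM, 3 of the 4 MNA libraries being above the DMSO maximum of 519 CPM, with a log2 fold change of 0.11 (SE 0.06, edgeR adjusted p = 0.143) that DESeq2 called (adjusted p = 0.0394).

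**Figure D4:**
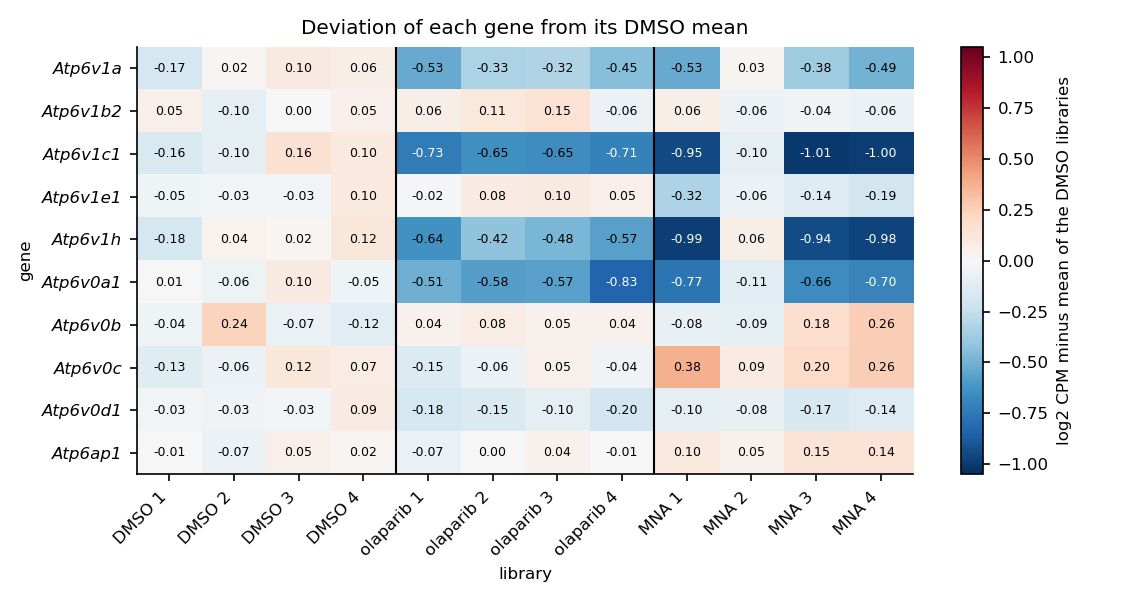
Log2 CPM of each of the 10 genes in each library minus the gene's mean over the DMSO libraries, with lines between the groups. The column of MNA replicate 2 ranges from -0.11 to 0.09, close to the DMSO columns, while Atp6v1c1 and Atp6v1h are at -0.94 to -1.01 in the other MNA columns and at -0.42 to -0.73 in the olaparib columns.

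The 10 genes did not move alike. In olaparib replicates 1 to 4 the median deviation of the 10 genes from their DMSO means was -0.16, -0.10, -0.03 and -0.13 on the log2 scale, but the lowest single gene lay at -0.73, -0.65, -0.65 and -0.83. Atp6v0a1, Atp6v0d1, Atp6v1a, Atp6v1c1 and Atp6v1h were below their DMSO means in 4 of 4 olaparib libraries and in 3 of the 3 MNA libraries other than replicate 2. In MNA replicate 2 those 5 genes deviated by -0.11, -0.08, 0.03, -0.10 and 0.06. The coefficient of variation in MNA without and with that library was 1.78% and 41.5% for Atp6v1h, 2.35% and 35.2% for Atp6v1c1, 3.78% and 22.8% for Atp6v0a1 and 5.52% and 19% for Atp6v1a. For Atp6v0b it was 12% and 12.5%, and for Atp6v1b2 4.64% and 4.2%.

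Olaparib and MNA were also compared directly, since both comparisons above share the 4 DMSO libraries. With all 12 libraries 2 members differed: Atp6v0c was lower and Atp6v1e1 higher in olaparib than in MNA, where 10.9% of all tested genes were called lower and 10.9% higher. Without MNA replicate 2 there were 3 higher (Atp6v1c1, Atp6v1h and Atp6v1e1) and 2 lower (Atp6v0c and Atp6ap1), where 21.5% and 20.7% of all tested genes were called higher and lower. The median over the members was -0.03 with all libraries and 0.07 without that library. Atp6v1c1 and Atp6v1h were called here in fits without that library alone, and Atp6ap1 also by DESeq2 with all libraries (adjusted p = 0.0304). Without that library, the call of Atp6ap1 (adjusted p = 0.048) was lost with the replicate block (0.0675) and in a fit of the 2 groups alone (0.0575).

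Atp6v1h was 1.36-fold higher in olaparib than in MNA without replicate 2 (log2 fold change 0.44, SE 0.08, edgeR adjusted p = 0.000325), the olaparib libraries at 240 to 278 CPM against 187 to 194 CPM. Atp6v1c1 was 1.23-fold higher in that fit (0.30, SE 0.07, adjusted p = 0.00491), with 269 to 286 CPM against 221 to 231 CPM. Neither group overlapped the other. With all 12 libraries the same differences were 0.11 (SE 0.20, adjusted p = 0.750) and 0.02 (SE 0.18, adjusted p = 0.946).

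Atp6v1e1 was 1.17-fold higher in olaparib than in MNA with all libraries (log2 fold change 0.23, SE 0.07, edgeR adjusted p = 0.0286) and 1.20-fold higher without MNA replicate 2 (adjusted p = 0.00348). Every olaparib library, from 243 CPM up, was above every MNA library, up to 238 CPM. The first call was lost without olaparib replicate 2 (adjusted p = 0.0786), 3 (0.0757) or 4 (0.0614) or MNA replicate 1 (0.0761), 3 (0.0545) or 4 (0.0711). Atp6v0c was 1.21-fold lower in olaparib (log2 fold change -0.28, SE 0.08, adjusted p = 0.0236, and -0.33, adjusted p = 0.00258, without MNA replicate 2), and its first call was lost without olaparib replicate 1 (0.0715) or 2 (0.0621) or MNA replicate 1 (0.0644) or 4 (0.0560). Atp6v0a1 and Atp6v1a were not called in either fit, and their log2 differences changed sign, from -0.08 with all libraries to 0.09 and 0.06 without MNA replicate 2.

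The isoform make-up of subunits a and d was then described per length, on shares chosen after values had been seen. Atp6v0a1 held 54.0% ± 1.75 (SD, n = 4) of the TPM of the a subunit genes in DMSO, 44.4% ± 1.84 in olaparib, 44.8% ± 5.46 in MNA and 42.1% ± 0.377 in the 3 MNA libraries without replicate 2. The olaparib libraries, from 42.2% to 46.6%, did not overlap the DMSO libraries, from 52.8% to 56.6%. This share restates the lower Atp6v0a1 beside its isoforms. An exact permutation test gave p = 0.0286 for olaparib against DMSO, with an adjusted p of 0.114 over 8 comparisons of the a and d shares. As the shares were chosen after values had been seen, no conclusion is drawn from it. Most of the remaining TPM was Tcirg1, which was not called in any comparison. Atp6v0d2 held 84.3% ± 0.698 of the TPM of the d subunit genes in DMSO, 82.5% ± 0.690 in olaparib and 81.6% ± 1.11 in MNA without replicate 2.

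The other subunit genes were mostly not called. Of 8 other V1 genes 4 were tested (Atp6v1d, Atp6v1f, Atp6v1g1 and Atp6v1g2), and 0 passed in either direction in the 3 comparisons with all 12 libraries by edgeR. At an unadjusted p under 0.05 there was 1 in olaparib against DMSO, 0 in MNA against DMSO and 1 in olaparib against MNA, each time Atp6v1d, a central stalk subunit. Over all 12849 tested genes these counts were 5280, 5756 and 4527. Atp6v1d had 138 to 164 CPM in DMSO and 157 to 181 CPM in olaparib (log2 fold change 0.18, SE 0.07, adjusted p = 0.0674, and 0.0366 without MNA replicate 2). Atp6v1f and Atp6v1g1, which encode a stalk subunit each, had log2 fold changes of 0.05 and -0.07 under olaparib and -0.03 and -0.07 under MNA. They share 18.4% and 24.0% of their 31-base words with other genes, so their counts are less certain.

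Of 6 other V0 genes 4 were tested. With all 12 libraries Atp6v0d2 was lower under both treatments, and Atp6v0a2, an a isoform of Golgi and early endosomes, was higher under MNA. Of all tested genes, 12.8% were called lower and 14.3% higher under olaparib, and 12.3% and 16.3% under MNA. Without MNA replicate 2 the list had 1 higher and 1 lower under olaparib, where 22.5% of all tested genes were called higher and 21.2% lower. Atp6v0d2 had 1736, 1795, 1965 and 1935 CPM in DMSO, 1346, 1494, 1552 and 1473 CPM in olaparib, and 1339, 1856, 1482 and 1365 CPM in MNA. It fell under olaparib (log2 fold change -0.34, SE 0.10, edgeR adjusted p = 0.0308) and under MNA (-0.30, SE 0.10, adjusted p = 0.0493, and -0.42, adjusted p = 0.000154, without MNA replicate 2). Atp6v0a2 had 55.3 to 66.7 CPM in DMSO and 86.5 to 93.6 CPM in the MNA libraries without replicate 2, which had 60.3 CPM (log2 fold change 0.41, SE 0.12, adjusted p = 0.0289, and 0.53, adjusted p = 4.05e-05, without it). In olaparib Atp6v0a2 had 65.5 to 79.1 CPM, a mean of 73.9 against 61.5 CPM in DMSO, and it was not called with all libraries. The antisense gene 4930404A12Rik overlaps 9.86% of the exon length of Atp6v0a2. Tcirg1, with 1055 to 1231 CPM over the 12 libraries, and Atp6v0e, with 297 to 363 CPM, were not called.

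Among 6 tested genes of 7 on the list for assembly and accessory factors, 0 were called under olaparib and 4 were lower under MNA with all 12 libraries by edgeR, where 12.3% of all tested genes were called lower. The MNA count was 5 lower without MNA replicate 2, where 26.9% of all tested genes were called lower. At an unadjusted p under 0.05 the olaparib count was 3, against 5280 of all 12849 tested genes. Without MNA replicate 2 the genes called under olaparib were 2 lower (Vma21 and Ccdc115) and 1 higher (Tmem9), where 21.2% of all tested genes were called lower and 22.5% higher. Vma21, a chaperone of V0 in the endoplasmic reticulum, had 64.9 to 69.8 CPM in DMSO, 53.2 to 57.7 CPM in olaparib, and 46.8, 64.0, 42.3 and 39.7 CPM in MNA. Vma21 fell under MNA (log2 fold change -0.49, SE 0.12, edgeR adjusted p = 0.0192, and -0.66, adjusted p = 1.08e-06, without MNA replicate 2). Ccdc115, which acts with Tmem199 in V0 assembly, fell as well (-0.35, SE 0.09, adjusted p = 0.0200, and -0.46, adjusted p = 3.54e-05, without that library), and Tmem199 did without that library (-0.32, adjusted p = 0.00767). Ccdc115 shares 19.0% of its 31-base words with other genes and overlaps Gm28306 over 6.37% of its exon length, so its counts are less certain.

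Atp6ap2, the second accessory subunit and partner of Atp6ap1, had 356 to 387 CPM in DMSO, 335 to 401 CPM in olaparib, and 293, 360, 302 and 292 CPM in MNA. It fell under MNA (log2 fold change -0.24, SE 0.08, edgeR adjusted p = 0.0459, and -0.315, adjusted p = 0.000917, without MNA replicate 2). It was higher in olaparib than in MNA (0.25, SE 0.08, adjusted p = 0.0413, and 0.33, adjusted p = 0.000934, without that library). Tmem9b was lower under MNA (-0.21, SE 0.06, adjusted p = 0.0231, and -0.25, adjusted p = 0.000909, without that library) and higher in olaparib than in MNA (0.29, SE 0.06, adjusted p = 0.00465, and 0.33, adjusted p = 0.000198). The opposite-strand 4930431P19Rik overlaps 13.9% of the exon length of Tmem9b. Its relative Tmem9, which binds the accessory subunits, was not called with all libraries (0.42, adjusted p = 0.0929 under olaparib). The list's median log2 fold change was -0.05 under olaparib, -0.23 under MNA and -0.32 under MNA without replicate 2, against 0.00 over all tested genes with all libraries.

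**Figure D5:**
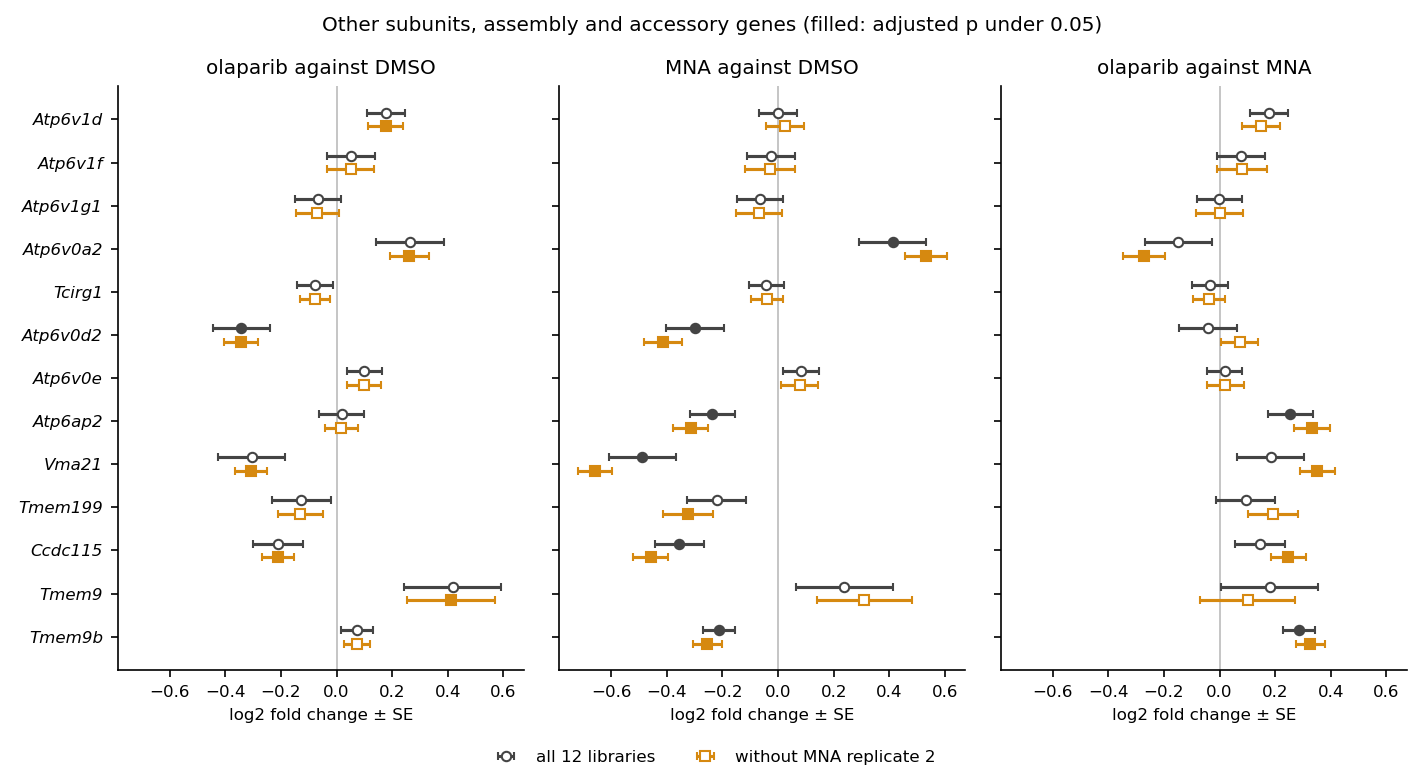
Log2 fold changes ± SE of other tested pump subunits and assembly or accessory genes, with all 12 libraries (circles) and without MNA replicate 2 (squares), filled where the edgeR adjusted p was under 0.05. Under MNA without replicate 2, Vma21, Ccdc115, Tmem199, Atp6ap2, Tmem9b and Atp6v0d2 have filled points below 0 and Atp6v0a2 a filled point above it.

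The RAVE complex, which returns V1 to V0, and the TLDc proteins, some of which bind the pump, were listed together. They gave 3 higher and 1 lower of 8 tested under olaparib, and 1 higher and 1 lower under MNA. The MNA counts were 2 higher and 1 lower without MNA replicate 2. Of all tested genes, 14.3% were called higher and 12.8% lower under olaparib and 16.3% and 12.3% under MNA with all libraries, and 27.2% and 26.9% under MNA without replicate 2. Dmxl2, a scaffold of RAVE, had 35.7 to 48.6 CPM in DMSO and 55.4 to 63.9 CPM in olaparib, where it rose (log2 fold change 0.53, SE 0.10, edgeR adjusted p = 0.00332). Rogdi, another RAVE subunit, had 2.61 to 3.30 CPM in DMSO, 7.5 to 8.81 CPM in olaparib, and 15.9, 3.15, 16.1 and 14.0 CPM in MNA. It rose under olaparib (1.48, SE 0.38, adjusted p = 0.0144) and under MNA (2.09, SE 0.38, adjusted p = 0.0142, and 2.41 without MNA replicate 2). The other gene called higher under olaparib, named after its value was seen, was Tldc1, a TLDc protein (0.25, adjusted p = 0.0212). Wdr7, which binds the Dmxl proteins, fell under both (-0.24, adjusted p = 0.0437, and -0.28, adjusted p = 0.0297, under MNA, which became -0.34, adjusted p = 0.0016, without MNA replicate 2).

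All 4 genes of the MiT/TFE factors were tested, and 3 were higher under olaparib and 1 under MNA, or 2 under MNA without replicate 2 (Tfeb and Tfec), against the shares of all tested genes just given. Tfec rose under olaparib from 24.3 to 27.9 CPM in DMSO to 32.9 to 41.7 CPM (log2 fold change 0.56, SE 0.12, edgeR adjusted p = 0.00764). Tfeb rose under olaparib (0.37, SE 0.12, adjusted p = 0.0381) and under MNA (0.35, SE 0.12, adjusted p = 0.0436, and 0.46, adjusted p = 0.000196, without MNA replicate 2), with 57.6 to 65.4 CPM in DMSO and 58.4 CPM in MNA replicate 2. Tfe3 rose under olaparib (0.21, SE 0.06, adjusted p = 0.0210), and Mitf was not called (0.01, adjusted p = 0.925, and 0.12, adjusted p = 0.131). These factors are known to switch on pump genes. Only their RNA was measured here, and their part in the values of the members was not tested.

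The profile most like the members' mean over the 12 libraries was sought among all tested genes outside the lists, by the root mean square difference of centred log2 CPM. The 5 nearest were Ythdf1 (0.0391), Coro1c (0.0416), Ywhab (0.0432), Brd1 (0.0433) and Fem1a (0.0441), while the members' mean profile itself spanned 0.364. Coro1c, an actin-binding protein, had mean levels of 335, 284 and 277 CPM in DMSO, olaparib and MNA. The members lay from 0.0775 for Atp6v0d1 to 0.288 for Atp6v1c1 from their own mean. The 5 genes were picked by this distance and the members were not, so no conclusion is drawn from the difference.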

How the data were processed

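RNA of 12 BMDM cultures (3 groups of 4) had been sequenced by the authors from stranded mRNA libraries. The authors deposited raw counts per Ensembl gene, made with STAR 2.5.2b on GRCm38.p5, without normalization. The strand setting behind the counts is not given in the sources used here, so overlaps with opposite-strand genes are named where they cover over 5% of the exons of a member or of a subunit or assembly gene reported as changed. The study mentions 4 donor mice but the labels tie no library to a mouse, so p-values measure the spread between these libraries, which may be technical. Total counts per library were 21146291 to 31446849.

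Symbols and positions came from GENCODE vM21, which held 34490 of 35275 genes. Genes were kept by filterByExpr (minimum count 10, total 15) and tested in R 4.3.3 with edgeR 4.0.16 (TMM, quasi-likelihood, all libraries in 1 fit), with Benjamini-Hochberg adjustment. CPM use TMM library sizes. SE come from the F value, and intervals are normal 95% intervals. Tested on simulated data for olaparib against DMSO (12710 genes), 161 of 200 changed genes were recovered and 4 unchanged ones called. Same-numbered olaparib and DMSO libraries deviated together (Pearson r 0.172 to 0.408), but whether these numbers pair could not be told. Fits with the replicate block are therefore given beside the fits by group. For MNA and DMSO r was -0.009 to 0.277, for MNA and olaparib 0.070 to 0.392. The MNA means in this check include replicate 2, and libraries with different numbers were not compared. No libraries held identical counts.

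The members and lists were chosen with earlier results of these data known. Named were all members, all tested genes of the subunit and assembly lists, of each other list the 2 genes with the smallest p under olaparib and the 2 under MNA, and the 5 nearest profiles. Alternatives were DESeq2 1.42.0, other normalizations and filters, the replicate block, fits of 2 groups, stricter thresholds and each library left out. A fit of 2 groups without MNA replicate 2 was added after seeing the data.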

Additional observations from a re-analysis of the deposited data

Results flagged for a closer look

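In groups of 4 libraries the highest or lowest value was compared with its nearest neighbour (Dixon's criterion at the 95% level). This was done for 24 pump genes in 3 groups, 72 combinations, of which 8 stood apart, and chance alone flags about 1 in 20. MNA replicate 2 was the library in 5 of the 8, always with the higher value: Atp6v0a1 at 1879 CPM, Atp6v1c1 at 417 CPM, Atp6v1h at 389 CPM, Atp6ap2 at 360 CPM and Ccdc115 at 40.7 CPM. The other 3 MNA libraries held 1194 to 1288, 221 to 231, 187 to 194, 292 to 302 and 30.6 to 31.9 CPM of these genes. In DMSO replicate 4, Atp6v0d1 at 242 CPM and Atp6v1e1 at 266 CPM were above the other DMSO libraries. In olaparib replicate 2, Atp6v0b at 159 CPM was above the other olaparib libraries, which lay at 155 to 156 CPM.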

How the results depend on the processing

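Under olaparib the 4 lower calls of the members became 1 at an adjusted p under 0.01 and 2 with at least a 1.5-fold change, and 2 to 5 with 1 library left out. Atp6v1h was added by DESeq2 and in a fit of 2 groups alone. Atp6v0d1 was lost with upper quartile normalization, with no filter on low counts and with a mean of at least 50 counts. Under MNA against DMSO the 1 higher and 3 lower calls became 2 and 6 by DESeq2, 0 and 0 in a fit of 2 groups alone and at an adjusted p under 0.01, 0 higher with no filter on low counts and with at least a 1.5-fold change, 5 lower in a fit of 2 groups without MNA replicate 2, and 0 to 1 and 0 to 6 with 1 library left out. For olaparib against MNA the 1 higher call became 0 with no filter, in a fit of 2 groups, at 0.01 and at 1.5-fold, 3 in a fit of 2 groups without MNA replicate 2, and 0 to 3 with 1 library left out. The 1 lower call became 2 by DESeq2, 0 at 0.01 and at 1.5-fold, and 0 to 2 with 1 library left out. The median of the members there was -0.069 to 0.070 with 1 library left out and 0.069 in the fit of 2 groups without MNA replicate 2. With the replicate block over all 12 libraries, the counts of lower calls were 4 under olaparib, 4 under MNA and 1 for olaparib against MNA. With the block and without MNA replicate 2 there were 5 lower under MNA, and 3 higher with a median of 0.066 for olaparib against MNA. Between olaparib and DMSO the block with all libraries changed the calls of Atp6v0d1 and Atp6v1h and no other member's. With the block and without MNA replicate 2, both genes were called lower there (edgeR adjusted p = 0.0205 and 6.6e-06). The shares of all tested genes called under these alternatives are not given, except for the fit by group without MNA replicate 2. The other counts thus have no background beside them.

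The values that changed sign were not called in the fit of all libraries. Atp6ap1 (olaparib against DMSO) was 0.017 with upper quartile normalization, 0.015 when a mean count of 50 was required, and -0.031 to 0.012 with 1 library left out. For olaparib against MNA, Atp6v0a1 was -0.153 to 0.092 with 1 library left out, 0.091 with the block and without MNA replicate 2, and 0.092 in 2 groups without MNA replicate 2. In the same order Atp6v1a was -0.143 to 0.061, 0.043 and 0.060. With 1 library left out Atp6v0b was -0.075 to 0.043 and Atp6v1c1 -0.075 to 0.302, the latter also -0.006 by total count only. The cause was not tested.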

Other observations

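Beside the pump, 18 genes of lysosomal ion transport were tested, and 5 were higher and 4 lower under olaparib, 2 higher and 3 lower under MNA. Without MNA replicate 2 the counts were 5 and 6 under olaparib and 6 and 7 under MNA. Of all tested genes, 14.3% were called higher and 12.8% lower under olaparib and 16.3% and 12.3% under MNA, which became 22.5%, 21.2%, 27.2% and 26.9% without that library. Hvcn1, a voltage-gated proton channel of phagocytes, had 180 to 185 CPM in DMSO, 417 to 566 CPM in olaparib, and 187, 161, 238 and 212 CPM in MNA. Hvcn1 rose under olaparib (log2 fold change 1.42, SE 0.12, edgeR adjusted p = 2.51e-05) and was not called under MNA (0.13, adjusted p = 0.393, and 0.22, adjusted p = 0.0662, without MNA replicate 2). The direct comparison put it higher in olaparib than in MNA (1.29, SE 0.12, adjusted p = 3.18e-05, and 1.2, adjusted p = 5.88e-07, without that library). The two-pore channel gene Tpcn1 rose under olaparib (0.66, SE 0.12, adjusted p = 0.00269), while its relative Tpcn2 fell under olaparib (-0.61, SE 0.15, adjusted p = 0.0116) and under MNA (-0.65, SE 0.15, adjusted p = 0.0161, and -0.87, adjusted p = 4.74e-07, without that library). Tmem175, a lysosomal potassium and proton channel, rose under MNA (0.69, SE 0.15, adjusted p = 0.0154, and 0.84, adjusted p = 1.79e-06, without that library), with 41.4, 37.9 and 32.9 CPM in 3 MNA libraries and 22.1 CPM in MNA replicate 2, against 19.3 to 21.8 CPM in DMSO.

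Of 13 Ragulator and Rag GTPase genes, which anchor nutrient sensing to the pump at the lysosome, 12 were tested. Under olaparib 0 were higher and 2 lower, and under MNA 1 was higher and 4 lower. At an unadjusted p under 0.05 there were 5 under olaparib, against 5280 of all 12849 tested genes. Without MNA replicate 2 the counts were 2 higher and 5 lower under olaparib and 3 higher and 6 lower under MNA, against the same shares of all tested genes as above. Rraga fell under olaparib (log2 fold change -0.24, SE 0.05, edgeR adjusted p = 0.00587), from 79.0 to 81.8 CPM in DMSO to 63.8 to 70.5 CPM, and Fnip2 fell as well (-0.60, SE 0.16, adjusted p = 0.0192). Under MNA, Lamtor3 fell (-0.44, SE 0.10, adjusted p = 0.0173, and -0.57, adjusted p = 1.53e-05, without MNA replicate 2) and Lamtor4 rose (0.56, SE 0.13, adjusted p = 0.0175, and 0.69, adjusted p = 7.27e-06, without it).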
